A study of Homo sapiens with 20 samples.

Results

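UO-31, an established human line from a renal cell carcinoma, was compared after 24 h with the tankyrase inhibitor G007-LK at 1 µM and after 24 h with its solvent, DMSO, at 0.01%. The comparison used 4 of the 20 poly(A) RNA libraries of the series, 2 with G007-LK and 2 with DMSO, which the labels call biological replicates. The other 16 libraries came from the lines RKO, ABC-1, OVCAR-4 and COLO 320DM, with 2 libraries for each of the same treatments. No gene was altered in any group, all libraries were made from bulk cultures, and the question behind the series was which transcripts follow tankyrase inhibition in lines whose growth it slows, with RKO as the insensitive line. The genes described here are the 11851 of 21201 symbols whose RPKM (reads scaled by transcript length and by library size) averaged 1 or more over the 4 UO-31 libraries. Of these, 160 had a DMSO mean under 1 RPKM and 70 a G007-LK mean under 1 RPKM, so they passed through 1 group alone. At the limit, MID2 lay just inside with a mean of 1.00 RPKM and LRRK2 just outside with a mean of 0.99998 RPKM.

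The tankyrases TNKS and TNKS2 attach chains of ADP-ribose to other proteins, and the ligase RNF146 then marks those proteins for destruction. Their known substrates include the axins, scaffolds of the complex that destroys beta-catenin, and the angiomotins, which hold the growth coactivator YAP away from its DNA-binding partners, the TEAD factors. Inhibitors such as G007-LK therefore act on protein stability, and changes in mRNA are read-outs further down.

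The 4 libraries differed little in sequencing depth. Reads could be compared between libraries because low values of a gene are whole multiples of the value of 1 read: relative to the first DMSO library, the other DMSO library held 1.01 times as many reads, and the G007-LK libraries 0.899 and 1.10 times as many. The absolute depth is unknown. As deposited, the second G007-LK library lay below the first by a median of 0.29 log2 units over the 11851 genes, while the DMSO pair differed by a median of 0.034. For the main comparison each library was therefore divided by 1 factor, its median ratio to the geometric mean of the 4 libraries (1.03 and 1.00 for DMSO, 1.10 and 0.880 for G007-LK), and "RPKM" below means these rescaled values unless "as deposited" is written. The gap between the G007-LK libraries also depended on transcript length, from -0.13 log2 units in the shortest of 5 equal length classes to -0.47 in the longest, as the plot of library differences by transcript length shows. The difference between the G007-LK mean and the DMSO mean did not follow length, at -0.034 in the shortest and -0.037 in the longest class. Counts of list members that moved with the omission of 1 library are given beside the lists below.

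**Figure D1:**
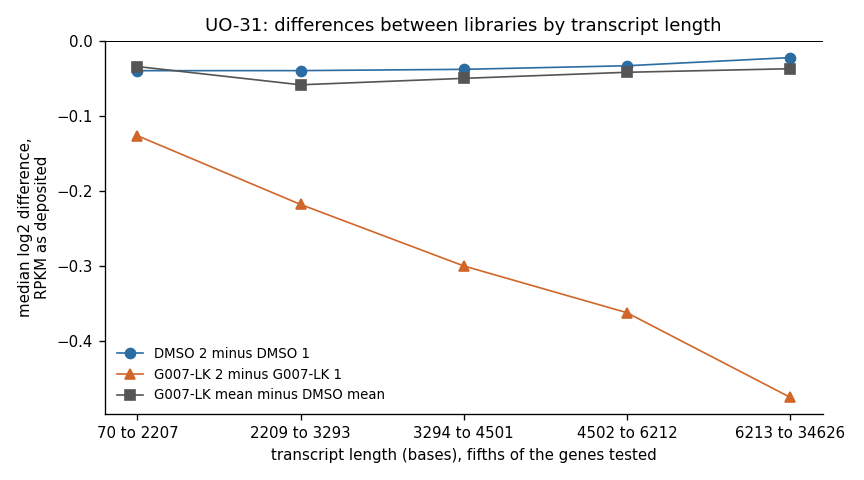
Median log2 difference in RPKM as deposited (y axis) in 5 equal classes of genes by transcript length in bases (x axis). The line for G007-LK 2 minus G007-LK 1 (triangles) falls from -0.13 to -0.47, while DMSO 2 minus DMSO 1 (circles) and the G007-LK mean minus the DMSO mean (squares) stay between -0.06 and -0.02.

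The renal origin was checked against marker genes. Marker levels in this paragraph are RPKM as deposited, up to the rescaled values of CDH16 and GGT1 near its end. Of 12 renal epithelial markers, 9 averaged 1 RPKM or more, among them PAX8 (63.9 to 83.7 RPKM as deposited) and PAX2, transcription factors of the kidney lineage. PAX8 is also an ovarian serous marker, and of the 6 markers of that set 3 reached 1 RPKM: PAX8, SOX17 (10.1 to 11.5 RPKM) and MSLN (1.68 to 1.87 RPKM), with WT1, MUC16 and ESR1 below it. All 3 were higher in another line of the series, at up to 89.5, 195 and 175 RPKM as deposited. LRP2, CUBN and AQP1, which mark differentiated proximal tubule, reached at most 0.23 RPKM (AQP1) in any of the 4 libraries. The epithelial keratins KRT8, KRT18 and KRT19 and the mesenchymal VIM lay between 787 RPKM (KRT18) and 3050.1 RPKM (KRT19) as deposited. The highest value of the epithelial cadherin CDH1 was 0.457 RPKM as deposited. Of 6 blood markers 4 were listed at 0 in every library, none of 4 lung markers and 1 of 6 colon markers reached 1 RPKM, and of 5 endothelial markers only CDH5 did (5.00 to 6.67 RPKM as deposited), and the highest value of PECAM1, VWF, TEK and KDR was 0.454 RPKM (VWF). Among the renal markers CDH16, a kidney cadherin, was at 1.04 and 0.943 RPKM under DMSO and 4.31 and 4.79 RPKM under G007-LK, and GGT1, a brush-border enzyme, was at 2.49 and 1.89 RPKM under DMSO and 5.09 and 5.71 RPKM under G007-LK. As deposited, which is what the filter used, CDH16 was at 1.06 and 0.948 RPKM under DMSO, close to the limit of 1 RPKM. Both were higher in each G007-LK library than in either DMSO library (log2 fold changes 1.76 and 1.14, adjusted p = 0.000374 and 0.00135, limma).

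With G007-LK, 1727 genes were higher in UO-31 (14.6% of the genes tested) and 1837 lower (15.5%), by the limma test with Benjamini-Hochberg adjustment over all 11851 genes and a threshold of 0.05. Among them 529 rose (4.46%) and 523 fell (4.41%) by 1.5-fold or more. Over all genes the median change was 0.0024 on the log2 scale. The 14.6% and 15.5% are the shares to set beside the counts of list members called higher and lower below. On the values as deposited 568 genes were higher (4.79%) and 1023 lower (8.63%), and 554 and 994 of these were also called after rescaling. When the rescaling was done along transcript length, a choice made after the data had been seen, 2190 were higher (18.5%) and 2459 lower (20.7%), with 1716 and 1834 of the main calls among them. In all 3 versions together 553 genes were higher and 994 lower. Log2 fold changes below are on the scale of log2(RPKM + 0.5), are given ± their standard error, and rest on 2 libraries a group, so that the p-values measure the spread between these cultures only. With bulk RNA, fewer cells that express a gene and less of its RNA per cell cannot be told apart.

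**Figure D2:**
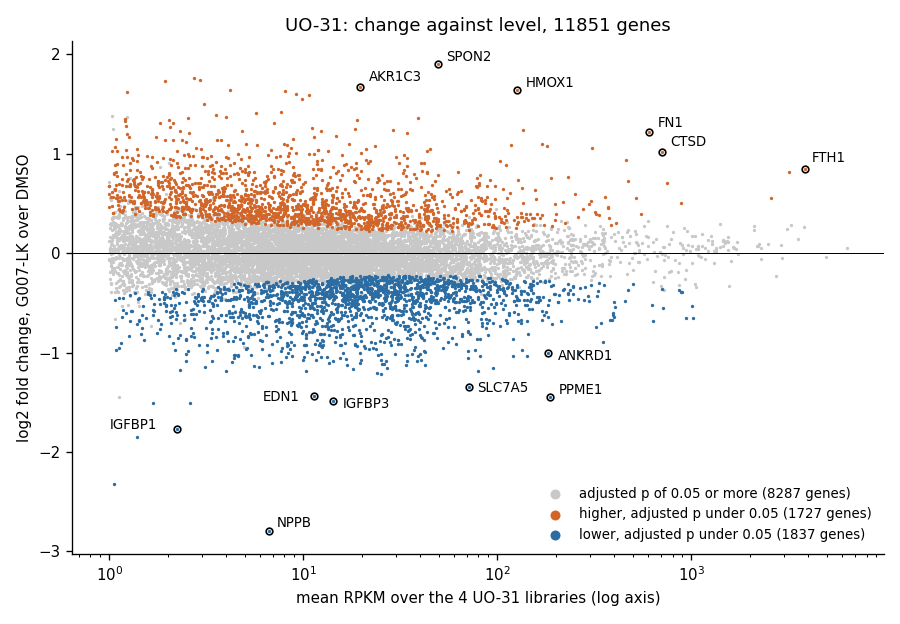
Log2 fold change with G007-LK (y axis) against the mean RPKM over the 4 UO-31 libraries (x axis, log scale) for 11851 genes, with the genes called higher in orange, called lower in blue and the rest in grey. NPPB stands lowest among the labelled genes at -2.79 and SPON2 highest at 1.90.

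Among genes averaging 5 RPKM or more, the 15 largest falls included 4 genes for secreted peptides and binding proteins, with cell-cycle genes, PPME1 and SLC7A5 (below) among the others. NPPB, which encodes the natriuretic peptide BNP (GRCh37 chromosome 1, 11917521 to 11919002, minus strand), was at 12.3 and 11.3 RPKM under DMSO and 1.05 and 1.54 RPKM under G007-LK. Both G007-LK libraries lay far below both DMSO libraries (log2 fold change -2.79 ± 0.14, adjusted p = 0.000285). IGFBP3, a carrier of insulin-like growth factors (GRCh37 chromosome 7, 45951844 to 45961473, minus strand), was at 21.4 and 20.8 RPKM under DMSO and 6.98 and 7.39 RPKM under G007-LK (log2 fold change -1.49 ± 0.08, adjusted p = 0.000285). The vasoconstrictor peptide genes EDN1 (GRCh37 chromosome 6, 12290594 to 12297427, plus strand) and EDN2 fell together. EDN1 was at 17.2 and 16.3 RPKM under DMSO and 5.75 and 5.97 RPKM under G007-LK (log2 fold change -1.44 ± 0.08, adjusted p = 0.000351), and EDN2 fell from 8.196 and 8.38 to 3.22 and 3.73 RPKM (log2 fold change -1.15 ± 0.10, adjusted p = 0.000535). Each of these 4 genes had its pair of G007-LK values close together and apart from the DMSO pair. Only genes without overlap between the groups were eligible for the largest falls, so this separation is not independent support. In the list of natriuretic peptides and endothelins, 3 of 8 tested members were lower (37.5%) and 2 higher (25%), beside 15.5% and 14.6% over all genes. The higher members were ADM, the vasodilator adrenomedullin (0.40), and NPR2, a natriuretic peptide receptor (0.31). On the values as deposited, and without either DMSO library, 3 were lower and 0 higher.

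The largest rises were of another kind. SPON2, a secreted matrix protein (GRCh37 chromosome 4, 1160720 to 1202750, minus strand), was at 21.9 and 19.5 RPKM under DMSO and 72.2 and 85.7 RPKM under G007-LK (log2 fold change 1.90 ± 0.10, adjusted p = 0.000285). Its mean in the other lines ran from 0.0729 RPKM in OVCAR-4 to 0.226 RPKM in RKO as deposited, too low for a comparison of responses. AKR1C3, a steroid and aldehyde reductase, was at 9.102 and 9.37 RPKM under DMSO and 28.5 and 32.5 RPKM under G007-LK (log2 fold change 1.67 ± 0.09, adjusted p = 0.000285). Its reads may be shared with the related AKR1C1 and AKR1C2, which reached at most 0.814 and 0.378 RPKM as deposited in the UO-31 libraries. HMOX1, heme oxygenase 1 (GRCh37 chromosome 22, 35776354 to 35790207, plus strand), was at 61.4 and 61.7 RPKM under DMSO and 180.3 and 207 RPKM under G007-LK (log2 fold change 1.64 ± 0.09, adjusted p = 0.000285). NUPR1, a stress-induced chromatin protein, rose from 3.11 and 4.41 to 10.5 and 14.9 RPKM (1.63), and HTRA1, a secreted serine protease, rose from 22.4 and 21.1 to 53.7 and 59.2 RPKM (1.36). The lens filament gene BFSP1 (1.55), the chloride channel protein gene CLIC3 (1.42), the late endosome GTPase RAB7B (1.41), the amino acid oxidase IL4I1 (1.31), TMEM151A (1.25) and the LIM protein gene CRIP1 (1.24) were also among the 15 largest, with adjusted p-values of at most 0.000743. The histone genes HIST1H2AC and HIST1H2BD rose by 1.60 and 1.60, but both belong to a family of near-identical copies, and only polyadenylated forms were captured.

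**Figure D3:**
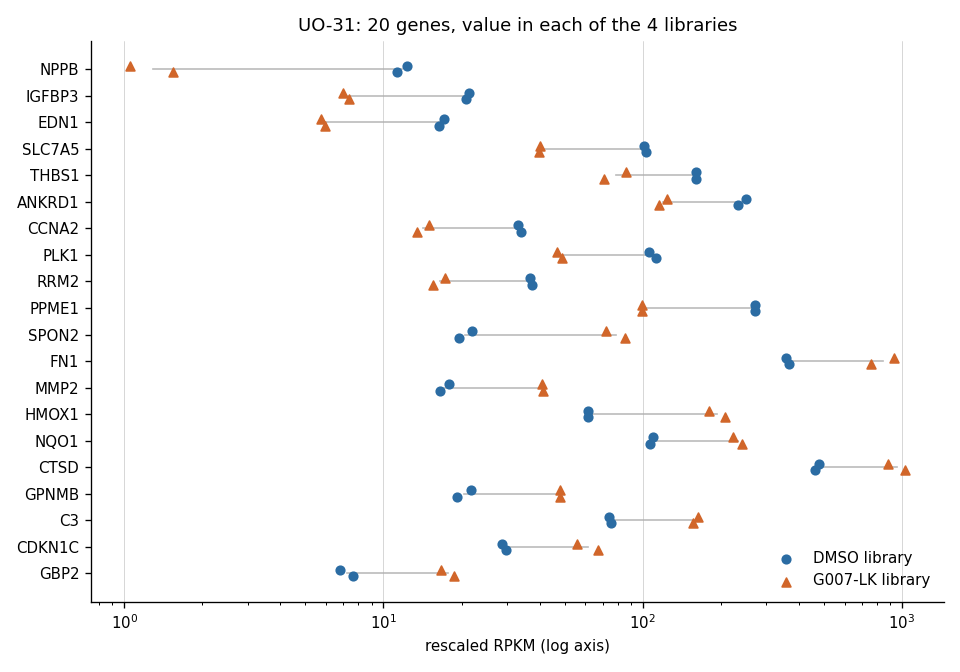
Rescaled RPKM (x axis, log scale) of 20 genes (rows) in each of the 2 DMSO libraries (blue circles) and 2 G007-LK libraries (orange triangles), with a grey line between the group means. In every row the G007-LK pair lies to one side of the DMSO pair, to the left for the 10 upper rows from NPPB to PPME1 and to the right for the 10 lower rows from SPON2 to GBP2. All 20 genes were drawn from those called by the test, so this separation follows in part from that choice.

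The transcripts of the drug targets and their substrates moved little. Of 17 tested genes for tankyrases and their substrates, 3 were higher (17.6%) and 1 lower (5.88%), beside 14.6% and 15.5% over all genes. TNKS was at 5.296 and 5.33 RPKM under DMSO and 8.26 and 6.43 RPKM under G007-LK (log2 fold change 0.42 ± 0.12, adjusted p = 0.0377), a call that was lost on the values as deposited (adjusted p = 0.28), with equal sums of RPKM and with quantile normalization. TNKS2 was at 12.2 and 12.2 RPKM under DMSO and 15.1 and 12.3 RPKM under G007-LK and did not pass the test (log2 fold change 0.16 ± 0.11, adjusted p = 0.299). The spindle protein gene NUMA1 (0.27) and RNF146 (0.26) passed at adjusted p = 0.0271 and 0.0466, and neither passed on the values as deposited. Of the angiomotins, AMOTL2 fell from 93.9 and 96.2 to 69.8 and 63.9 RPKM (log2 fold change -0.51 ± 0.08, adjusted p = 0.00376), while AMOT (0.18) and AMOTL1 (0.08) did not pass. AXIN1 (-0.06), CASC3 (-0.09), TERF1 (0.09), LNPEP (-0.36), BLZF1 (-0.17), TNKS1BP1 (0.19), GMDS (-0.10), SH3BP2 (0.18) and PEX14 (-0.04) were also among those that did not pass. The higher members numbered 0 on the values as deposited and without either DMSO library, and 4 and 8 when G007-LK replicates 1 and 2 were omitted in turn, which gave 3 and 2 lower members.

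Most of the WNT/beta-catenin target genes listed had RNA levels below 1 RPKM in UO-31. AXIN2, the feedback inhibitor used as a read-out of the pathway, was at 0.337 and 0.194 RPKM with DMSO and 0.531 and 0.246 RPKM with G007-LK as deposited, and 13 of the 21 WNT target genes listed were below 1 RPKM, among them LGR5, NKD1, RNF43, NOTUM and SP5. Of the 8 that were tested 3 were lower and 0 higher, beside 15.5% lower over all genes. The lower members numbered 1 and 2 without DMSO replicates 1 and 2, 2 on the values as deposited and 4 without either G007-LK library. DKK1, a secreted WNT antagonist, fell from 12.6 and 12.99 to 9.302 and 8.07 RPKM (log2 fold change -0.54 ± 0.09, adjusted p = 0.00568). BMP4, a bone morphogenetic protein, fell from 12.2 and 11.2 to 8.91 and 7.78 RPKM (log2 fold change -0.47 ± 0.10, adjusted p = 0.0112). CCND1, the G1 cyclin D1, was at 132 and 132 RPKM under DMSO and 109 and 99.4 RPKM under G007-LK (log2 fold change -0.34 ± 0.08, adjusted p = 0.0191), with both G007-LK libraries below both DMSO libraries. MYC was at 68.3 and 67.6 RPKM under DMSO and 61.1 and 62.8 RPKM under G007-LK (log2 fold change -0.13 ± 0.07, adjusted p = 0.205) and did not pass the main test, although it passed in the fit over all 20 libraries at the same size of change (adjusted p = 0.017) and without G007-LK replicate 1 or 2 (adjusted p = 0.039 and 0.0086).

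YAP/TEAD target genes fell as a group. Of 25 tested members 16 were lower, 1 was higher (NT5E, an ecto-nucleotidase) and 8 did not pass, with a median log2 fold change of -0.49. IGFBP3 and EDN1 (above) belong to this list. THBS1, which encodes the matrix glycoprotein thrombospondin 1, was at 160.4 and 161 RPKM under DMSO and 85.97 and 71.1 RPKM under G007-LK (log2 fold change -1.03 ± 0.10, adjusted p = 0.000693). ANKRD1, a muscle and stress ankyrin repeat protein, was at 249.7 and 233 RPKM under DMSO and 124 and 116 RPKM under G007-LK (log2 fold change -1.01 ± 0.08, adjusted p = 0.000508). For both genes the G007-LK pair lay well below the DMSO pair. The matricellular proteins CYR61 (now CCN1) and CTGF (now CCN2) fell from 404 and 397 to 238 and 240.0 RPKM and from 221 and 220.2 to 144 and 138 RPKM (log2 fold changes -0.74 and -0.64, adjusted p = 0.00119 and 0.00153). CCDC80, a matrix protein, fell by about the same (-0.68). Without DMSO replicate 1 the lower members numbered 10, and the other omissions left 11 to 20. The members that did not pass were MYOF, LATS2, ASAP1, DOCK5, PTPN14, ARHGEF17, NUAK2 and RBMS3. The fall was smaller in UO-31 than in 2 other lines: UO-31 minus OVCAR-4 was higher for 9 of 25 members and lower for 3, and UO-31 minus ABC-1 higher for 11 of 22 and lower for 1 (over all genes 5.25% and 9.21% were higher in these limma interaction tests). Against RKO it was lower for 9 of 18 and higher for 0 (14.5% of all genes lower). Against COLO 320DM, also a sensitive line, it was lower for 5 of 14 and higher for 0 (9.89% of all genes lower). ANKRD1 alone differed by 0.96 ± 0.10, adjusted p = 0.00049 against OVCAR-4 and by 1.17 ± 0.10, adjusted p = 0.000192 against ABC-1.

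TEAD factors bind sites around GGAATG. These letters, read on both strands, stood in the window from 250 bases before to 50 bases after the start of 7 of 18 YAP/TEAD target genes with an entry among the RefSeq promoters (38.9%), against 10.9% of 8810 promoters matched to the UO-31 genes tested and 14% of all 27305 promoters given. Among genes lower by at least 1.5-fold the share was 13.6%, and among genes higher by at least 1.5-fold 13%, so the letters were about as frequent in rises as in falls. The 250 bases before the start (GRCh38.p14, 5′ to 3′ on the gene's strand) are shown for 4 called members with large falls that hold the letters. Not every chromosome was eligible for display. GGAATG or its reverse complement CATTCC is in capitals, and a match is a description of sequence, not a bound site.
THBS1 (chr15:39580829-39581078, plus strand): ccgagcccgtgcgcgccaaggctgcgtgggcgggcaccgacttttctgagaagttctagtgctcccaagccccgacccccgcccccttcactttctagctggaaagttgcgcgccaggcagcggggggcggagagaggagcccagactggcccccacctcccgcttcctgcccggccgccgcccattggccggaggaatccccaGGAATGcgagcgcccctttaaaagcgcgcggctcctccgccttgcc
ANKRD1 (chr10:90921088-90921337, minus strand): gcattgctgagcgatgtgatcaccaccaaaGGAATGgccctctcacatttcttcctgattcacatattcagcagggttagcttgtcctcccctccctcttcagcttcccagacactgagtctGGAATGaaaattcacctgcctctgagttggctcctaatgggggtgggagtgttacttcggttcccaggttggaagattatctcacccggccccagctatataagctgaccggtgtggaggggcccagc
TGFB2 (chr1:218345086-218345335, plus strand): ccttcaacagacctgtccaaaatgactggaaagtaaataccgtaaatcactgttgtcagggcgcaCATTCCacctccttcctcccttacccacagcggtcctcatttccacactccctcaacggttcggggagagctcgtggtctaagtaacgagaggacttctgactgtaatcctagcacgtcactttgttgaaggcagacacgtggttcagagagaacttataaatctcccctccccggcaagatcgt
CCN2 (chr6:131951373-131951622, minus strand): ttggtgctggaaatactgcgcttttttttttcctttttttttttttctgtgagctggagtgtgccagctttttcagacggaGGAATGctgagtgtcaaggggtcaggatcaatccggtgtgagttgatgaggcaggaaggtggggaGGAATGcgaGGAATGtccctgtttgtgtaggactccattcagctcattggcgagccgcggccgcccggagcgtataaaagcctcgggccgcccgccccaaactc
CCN2 held 3 copies, 169, 104 and 95 bases before the start, ANKRD1 held 2, 220 and 128 bases before it, and THBS1 and TGFB2 held 1 each.

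Mitosis and DNA replication were the lists, of 40, in which every tested member was called. All 41 tested genes of mitosis were lower, by 0.64 to 1.21 log2 units with a median of -1.01, and all 42 tested genes of DNA replication were lower, by 0.39 to 1.19 with a median of -0.79; 0 of either list was higher. All 41 and all 42 stayed lower without either G007-LK library and 41 and 39 without either DMSO library. CCNA2, cyclin A2 (GRCh37 chromosome 4, 122737599 to 122745038, minus strand), was at 33.1 and 33.9 RPKM under DMSO and 14.9 and 13.5 RPKM under G007-LK (log2 fold change -1.21 ± 0.08, adjusted p = 0.000374). PLK1, a mitotic kinase, was at 106 and 113 RPKM under DMSO and 46.7 and 48.7 RPKM under G007-LK (log2 fold change -1.19 ± 0.08, adjusted p = 0.000374), and CDC20, an activator of the anaphase-promoting complex, fell from 124 and 137 to 55.1 and 60.7 RPKM (-1.16). These genes were picked by size of change among called members. In each of them the G007-LK pair and the DMSO pair were separated by more than the spread within either pair. ESPL1 (separase, -1.18), BUB1B (a checkpoint kinase, -1.11) and KIF23 (a kinesin of cytokinesis, -1.10) changed alike, as did the mitotic kinase gene PBK (-1.21) and FAM64A (-1.16). Among replication genes, CDC45 (a helicase subunit) fell from 14.99 and 13.8 to 5.73 and 6.36 RPKM (-1.19), RRM2 (a ribonucleotide reductase subunit) fell from 36.8 and 37.4 to 17.3 and 15.6 RPKM (-1.15), and GINS2 (-1.12), CDC6 (-1.06), MCM10 (-1.02) and UHRF1 (-1.02) followed. The exonuclease gene EXO1 (-1.13) and MYBL2, a transcription factor of dividing cells (from 58.2 and 58.4 to 25.9 and 26.9 RPKM, -1.13), were also among the 15 largest falls.

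The size of this change set UO-31 apart from 3 of the 4 other lines. UO-31 minus RKO was lower for 41 of 41 mitosis genes and 40 of 42 replication genes, UO-31 minus COLO 320DM for 40 and 33, and UO-31 minus OVCAR-4 for 37 and 35, against 14.5%, 9.89% and 8.94% of all genes. Against ABC-1 the mitosis genes did not stand apart, with 1 of 41 lower, 0 higher and a median difference of -0.072, while the replication genes fell less in UO-31 than in ABC-1, with 21 of 42 higher, 0 lower and a median difference of 0.38. The 4 tests share the UO-31 libraries. PLK1, for instance, differed by -1.07 ± 0.07, adjusted p = 0.000155 from RKO and by -0.27 ± 0.09, adjusted p = 0.0667 from ABC-1.

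Regulators of G1 moved both ways, with 5 of 20 tested members higher (25%) and 6 lower (30%), beside 14.6% and 15.5% over all genes. CDKN1C, the CDK inhibitor p57, was at 28.7 and 29.8 RPKM under DMSO and 55.6 and 67.02 RPKM under G007-LK (log2 fold change 1.05 ± 0.10, adjusted p = 0.000602), and CCND2, cyclin D2, rose from 38.2 and 35.8 to 42.9 and 58.1 RPKM (0.43), a call that was lost with rescaling by transcript length (adjusted p = 0.10). CDKN2C, the CDK inhibitor p18, fell from 6.69 and 7.23 to 3.63 and 3.88 RPKM (-0.81). CDK2 (-0.67), CCNE2 (-0.70) and the pocket protein gene RBL1 (-0.65) were lower too. Of the MYC, MAX, MXD and arrestin genes 3 of 11 were higher and 1 lower: MXD4 (from 23.99 and 24.1 to 41.4 and 47.9 RPKM, 0.88) and MXI1 (0.39), which compete with MYC for its partner MAX, and TXNIP, the glucose-responsive arrestin (from 8.97 and 7.85 to 15.3 and 15.6 RPKM, 0.85), rose, and MXD3 (-0.44) fell, against 6 higher and 3 lower without G007-LK replicate 1 and 5 higher and 3 lower without replicate 2. Of 28 tested p53 targets 8 were higher (28.6%) and 2 lower (7.14%), beside 14.6% and 15.5% over all genes. TP53INP1 (0.85), TP53I3 (0.64), the BH3-only gene BBC3 (0.53), SPATA18 (0.43) and ZMAT3 (0.36) led the rises, while GADD45A fell (-0.38). The higher p53 targets numbered 3 without either DMSO library and 15 and 12 without G007-LK replicates 1 and 2, and the higher G1 genes 2 and 1 without DMSO replicates 1 and 2. CDKN1A, the p53 target and CDK inhibitor p21, did not pass (0.15, adjusted p = 0.249).

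**Figure D4:**
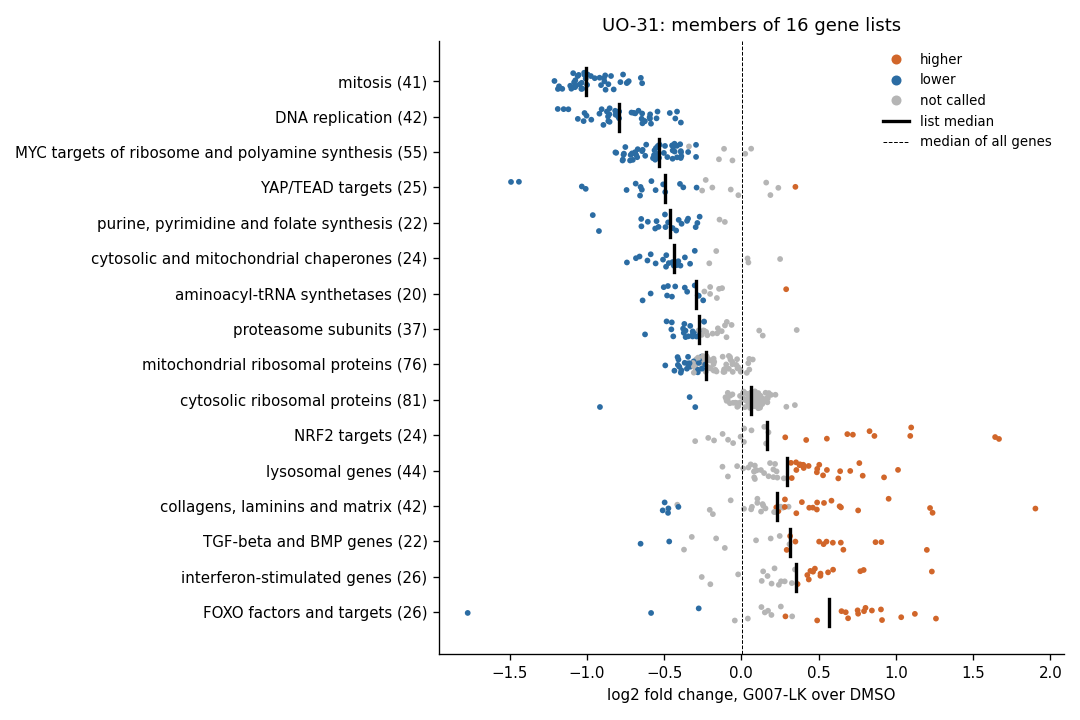
Log2 fold change with G007-LK in UO-31 (x axis) of the tested members of 16 gene lists (rows, number of members in brackets, points spread vertically for legibility), coloured by call, with a black bar at each list's median and a dashed line at the median of all genes. Every mitosis and DNA replication point is blue and left of the line, while the cytosolic ribosomal proteins cluster around it.

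Genes for building ribosomes and nucleotides were lower. Of 55 tested MYC targets of ribosome and polyamine synthesis, 49 were lower and 0 higher, with a median of -0.53. LYAR, a nucleolar protein, fell from 15.8 and 15.3 to 8.52 and 8.71 RPKM (log2 fold change -0.82 ± 0.08, adjusted p = 0.000677). MRTO4 (-0.77), NOP16 (-0.77), the nucleolar helicase DDX21 (-0.76) and RRS1 (-0.76) fell by similar sizes, and so did SRM, spermidine synthase, from 104 and 113 to 62.4 and 66.3 RPKM (-0.75). Without DMSO replicate 2 the lower members numbered 32. UO-31 minus RKO was lower for 45 of these 55 genes and higher for 0 (14.5% of all genes lower). Against OVCAR-4 it was lower for 21 and higher for 1 (8.94% of all genes lower). Against COLO 320DM it was lower for 7 and higher for 2 (9.89% and 7.23% of all genes). Against ABC-1 it was higher for 13 and lower for 2 (9.21% and 8.94%). All 22 tested genes of purine, pyrimidine and folate synthesis had a log2 fold change below 0, and 20 were lower by the test with a median of -0.46: CTPS1, CTP synthase, fell from 31.7 and 30.7 to 15.7 and 15.8 RPKM (-0.96), MTHFD2, a mitochondrial folate enzyme, fell from 37.3 and 36.3 to 20.3 and 18.1 RPKM (-0.92), and PFAS (-0.65), PRPS1 (-0.65), PAICS (-0.61) and the folate carrier SLC19A1 (-0.56) followed. The lower members numbered 12 and 11 without DMSO replicates 1 and 2.

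MYC and related factors bind CACGTG, the E-box, which also forms the core of the motif of the lysosomal regulators TFEB and TFE3. It stood in 19 of 48 promoters of the MYC targets of ribosome and polyamine synthesis (39.6%) and in 10 of 29 promoters of lysosomal genes (34.5%), against 10.4% for the UO-31 genes tested and 7.43% of all 27305. These lists moved in opposite directions (lysosomal genes below), and the E-box stood in 9.23% of promoters of genes lower and 8.58% of genes higher by at least 1.5-fold. It is shown in capitals in the 250 bases before the start (GRCh38.p14) for 2 called members of each list with large changes that hold it. Not every chromosome was eligible for display.
SRM, lower (chr1:11060019-11060268, minus strand): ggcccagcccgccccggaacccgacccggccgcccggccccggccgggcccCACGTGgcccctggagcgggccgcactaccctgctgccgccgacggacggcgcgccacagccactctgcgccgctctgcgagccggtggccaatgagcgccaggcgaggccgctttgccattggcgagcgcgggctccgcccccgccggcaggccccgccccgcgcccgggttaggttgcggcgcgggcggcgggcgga
EBNA1BP2, lower (chr1:43172571-43172820, minus strand): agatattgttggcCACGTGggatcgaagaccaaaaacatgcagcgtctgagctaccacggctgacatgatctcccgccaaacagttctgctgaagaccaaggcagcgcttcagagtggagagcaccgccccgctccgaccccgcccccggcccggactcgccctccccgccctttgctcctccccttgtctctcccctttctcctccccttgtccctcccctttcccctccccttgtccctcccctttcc
CTSD, higher (chr11:1763928-1764177, minus strand): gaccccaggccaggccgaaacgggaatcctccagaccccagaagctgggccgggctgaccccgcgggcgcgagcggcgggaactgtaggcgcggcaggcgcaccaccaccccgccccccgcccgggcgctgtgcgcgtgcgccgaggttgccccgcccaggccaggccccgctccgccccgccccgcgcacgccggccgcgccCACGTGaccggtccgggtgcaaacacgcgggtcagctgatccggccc
NEU1, higher (chr6:31862822-31863071, minus strand): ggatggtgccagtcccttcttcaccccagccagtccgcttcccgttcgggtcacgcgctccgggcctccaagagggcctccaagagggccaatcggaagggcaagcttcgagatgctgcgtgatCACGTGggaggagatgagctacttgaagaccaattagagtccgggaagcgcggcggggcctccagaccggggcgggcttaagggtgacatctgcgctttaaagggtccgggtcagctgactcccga
The E-box lay 199 bases before the start of SRM, 237 before that of EBNA1BP2, 47 before that of CTSD and 126 before that of NEU1.

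Genes of cytosolic and mitochondrial chaperones and of the proteasome leaned lower as well. Of 24 tested cytosolic and mitochondrial chaperones 19 were lower and 0 higher (median -0.44). HSP90AA1, the HSP90 alpha chaperone, was at 771 and 777 RPKM under DMSO and 492 and 472 RPKM under G007-LK (log2 fold change -0.68 ± 0.09, adjusted p = 0.00229), and its partners FKBP4 (-0.74), STIP1 (-0.59) and AHSA1 (-0.56), the mitochondrial TRAP1 (-0.66) and the chaperonin subunit CCT5 (-0.61) fell with it. The members that did not pass were HSPA1B, HSPB1, DNAJB1, DNAJB4 and BAG3. Of 37 proteasome subunits 19 were lower and 0 higher (median -0.28), with PSMD2 (from 472 and 477 to 300.3 and 316 RPKM, -0.62), PSMD12 (-0.48), PSMD1 (-0.45) and PSMD11 (-0.45) lowest. Among 23 ER chaperone and unfolded protein genes 5 were lower (21.7%, beside 15.5% over all genes) and 0 higher. SDF2L1 (-0.56) and MANF (-0.48) led these falls, which included the ER HSP70 gene HSPA5 (-0.38). Of 11 tubulin genes 5 were lower and 1 higher: TUBB4B (-0.68), TUBB6 (-0.67), TUBG1 (-0.67), TUBA1B (-0.65) and TUBA1C (-0.54) fell while TUBA1A rose (0.44), although the TUBA1 genes are near-identical and could exchange reads. Without DMSO replicate 1 or 2, the lower chaperones numbered 7 and 7, the lower proteasome subunits 3 and 2 and the lower ER genes 1 and 1, while without G007-LK replicate 1 or 2 the proteasome subunits numbered 28 and 33 and the ER genes 11 and 13. Without G007-LK replicate 2 the lower tubulin genes numbered 9.

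Among amino acid transport and tRNA charging genes, most called members were lower and some were higher. SLC7A5, the large neutral amino acid transporter (GRCh37 chromosome 16, 87863629 to 87903113, minus strand), was at 101 and 103 RPKM under DMSO and 40.04 and 39.7 RPKM under G007-LK (log2 fold change -1.35 ± 0.07, adjusted p = 0.000285). The change exceeded that in RKO, OVCAR-4 and COLO 320DM by -1.26, -0.97 and -1.29 (highest adjusted p = 0.00019), and differed from ABC-1 by -0.19 ± 0.07, adjusted p = 0.111. Of 20 aminoacyl-tRNA synthetases 13 were lower and 1 higher (QARS), with a median of -0.29, led by FARSB (-0.64), MARS (-0.59) and YARS (-0.50). Of 29 tested ATF4 targets and amino acid supply genes 11 were lower (37.9%, beside 15.5% over all genes). Another 4 were higher (13.8%), near the 14.6% over all genes. STC2, a secreted glycoprotein, fell from 83.8 and 84.6 to 46.98 and 46.8 RPKM (-0.84), while the cystine carrier SLC7A11 rose from 2.76 and 3.25 to 7.87 and 6.196 RPKM (1.10), as did NUPR1 (above) and the transcription factor CEBPB (0.72). Without DMSO replicate 1 or 2 the lower synthetases numbered 5 and 4 and the lower ATF4 targets 6 and 6, and without G007-LK replicate 2 they numbered 19 and 19. The ATF4 motif TGATGNAA, read on both strands, was found in 5 of 24 promoters of the list (20.8%) and in 1.5% of promoters of the genes tested.

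Lists of ribosomal and mitochondrial proteins depended on single libraries. Of 81 cytosolic ribosomal protein genes 78 did not pass, 0 were higher and 3 were lower, and the 3 were the paralogues RPL22L1 (-0.92), RPL7L1 (-0.33) and RPL26L1 (-0.30). The median of this list was 0.063, but 71 members were higher (median 0.21) without G007-LK replicate 1 and 37 were lower (median -0.08) without G007-LK replicate 2. Likewise, of 75 respiratory chain and ATP synthase genes 6 were lower and 0 higher (median -0.049), against 31 higher and 13 lower without G007-LK replicate 1, 0 higher and 52 lower without replicate 2, and 0 in either direction without either DMSO library. The direction of both lists therefore rested on which G007-LK library was used. Of 76 mitochondrial ribosomal proteins 24 were lower and 0 higher (median -0.23), with MRPL12 (-0.49) and MRPL33 (-0.43) lowest. The lower members numbered 5 on the values as deposited, 2 without either DMSO library, 35 (with 7 higher) without G007-LK replicate 1 and 64 when replicate 2 was omitted. Lower members of the respiratory chain were ATP5G1 (-0.48), NDUFS1 (-0.39), UQCRFS1 (-0.37), ATP5B (-0.36), SDHB (-0.33) and COX5A (-0.30).

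Of 24 tested NRF2 targets 11 were higher and 0 lower, with a median of 0.17. NQO1, a quinone reductase (GRCh37 chromosome 16, 69740899 to 69760571, minus strand), was at 109.8 and 107 RPKM under DMSO and 222 and 242 RPKM under G007-LK (log2 fold change 1.09 ± 0.08, adjusted p = 0.00046), and the conjugate exporter ABCC3 (0.86), the epoxide hydrolase EPHX1 (0.83) and the selective autophagy receptor SQSTM1 (from 355 and 362 to 564 and 620.3 RPKM, 0.72) rose with HMOX1, AKR1C3 and SLC7A11. Several genes used to read NRF2 did not pass, namely GCLM (0.02), GCLC, TXNRD1 (0.18), SRXN1, TXN and PRDX1. The NRF2 core TGACNNNGC was found in 4 of 17 promoters of the list (23.5%) and in 15.3% of promoters of the genes tested. Of the heme and iron genes 5 of 13 were higher (38.5%) and 3 lower (23.1%), beside 14.6% and 15.5% over all genes. The ferritin chains FTH1 and FTL, which store iron, were at 2799 and 2733 RPKM under DMSO and 4493 and 5498 RPKM under G007-LK and at 2320.4 and 2320.0 RPKM under DMSO and 3704 and 4514 RPKM under G007-LK (0.85 and 0.82, adjusted p = 0.00491 and 0.00502), and the higher members of this list numbered 3 without either DMSO library. The iron exporter SLC40A1 rose from 2.67 and 2.49 to 4.94 and 4.58 RPKM (0.77) and the biliverdin reductase BLVRB rose (0.48), while the transferrin receptor TFRC, which takes iron up, fell from 90.98 and 91.8 to 57.6 and 46.8 RPKM (log2 fold change -0.81 ± 0.10, adjusted p = 0.0018). Of 11 metallothionein and zinc transport genes MT1F was higher (0.49) and MT1A (-0.60) and SLC39A14 (-0.43) lower. These shares, 9.09% and 18.2%, stand beside 14.6% and 15.5% over all genes. The MT1 genes are near-identical copies. Without G007-LK replicate 2, 3 of these 11 were higher and 6 lower, and without DMSO replicate 2 none was called.

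FOXO factors and their targets rose. Of 26 tested members 15 were higher and 3 lower, with a median of 0.57, and 13 were higher on the values as deposited. FBXO32, the ubiquitin ligase atrogin-1, was at 6.23 and 6.44 RPKM under DMSO and 15.8 and 15.96 RPKM under G007-LK (log2 fold change 1.26 ± 0.08, adjusted p = 0.000374). BMF, a BH3-only gene (from 1.38 and 1.39 to 3.57 and 3.65 RPKM, 1.12), KLHL24 (from 4.46 and 4.096 to 10.3 and 8.32 RPKM, 1.03), FOXO4 itself (0.91) and PIK3IP1, an inhibitor of PI3 kinase (from 14.9 and 15.2 to 26.99 and 30.1 RPKM, 0.90), rose with TXNIP. Among the 3 that fell were IGFBP1 (from 3.32 and 4.05 to 0.729 and 0.714 RPKM, -1.77), whose G007-LK mean of 0.721 RPKM lay below the filter that it passed through its DMSO level, and the hypoxia gene BNIP3 (-0.58). UO-31 minus RKO was higher for 12 of 22 members and lower for 0, and UO-31 minus COLO 320DM higher for 11 of 24 and lower for 2 (6.49% and 7.23% of all genes higher). Against OVCAR-4 it was higher for 7 of 24 and lower for 1 (5.25% of all genes higher), and against ABC-1 higher for 3 of 23 and lower for 6 (8.94% of all genes lower), with a median difference of -0.13. Of 10 tested IGF binding proteins and insulin adaptors 4 were lower (40%) and 2 higher (20%), beside 15.5% and 14.6% over all genes. IGFBP5 (-0.86) and IGFBP4 (-0.43) fell with IGFBP1 and IGFBP3, and IGFBP7 rose from 291 and 291 to 410.0 and 451 RPKM (0.56) with the adaptor GRB10 (0.33). Without either DMSO library 0 members of that list were higher.

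Lysosomal genes leaned to higher levels. Of 44 tested members 41 had a log2 fold change above 0, 22 were higher and 0 lower (median 0.30), and 12 were higher on the values as deposited. CTSD, the aspartic protease cathepsin D (GRCh37 chromosome 11, 1773982 to 1785803, minus strand), was at 477 and 464 RPKM under DMSO and 879.9 and 1027 RPKM under G007-LK (log2 fold change 1.01 ± 0.11, adjusted p = 0.00101). TPP1, a tripeptidyl peptidase, rose from 69.1 and 72.3 to 141 and 128 RPKM (0.92), and the sialidase NEU1 (0.79), progranulin GRN (0.76), prosaposin PSAP (0.70) and the glucosidase GAA (0.64) followed. UO-31 minus RKO was higher for 19 of 44 and UO-31 minus OVCAR-4 for 14 of 44, with 0 lower in either (6.49% and 5.25% of all genes higher). Against COLO 320DM it was higher for 8 of 44 and lower for 5 (7.23% and 9.89% of all genes), and against ABC-1 higher for 5 of 43 and lower for 2 (9.21% and 8.94%). Of 18 MiT/TFE, folliculin and autophagy genes 6 were higher (33.3%) and 1 lower (5.56%), beside 14.6% and 15.5% over all genes. GPNMB, a membrane glycoprotein often used to read MiT/TFE activity, was at 21.7 and 19.2 RPKM under DMSO and 47.9 and 47.8 RPKM under G007-LK (log2 fold change 1.21 ± 0.08, adjusted p = 0.000379), and TFEB (0.47), FLCN (0.41) and the autophagy kinase ULK1 (0.34) were higher while MITF was lower (-0.33). Of 33 sterol and fatty acid genes 6 were higher (18.2%) and 3 lower (9.09%), beside 14.6% and 15.5% over all genes. Higher members included ACSS2 (0.45), FADS2 (0.43), SREBF2 (0.35), SCD (0.35) and SC5D (0.35), and ELOVL6 was lowest (-0.53). The higher lysosomal genes numbered 11 without either DMSO library and 39 without G007-LK replicate 1. Without DMSO replicates 1 and 2 the higher MiT/TFE genes numbered 2 and 3 and the higher sterol genes 0 and 1, while without G007-LK replicates 1 and 2 the lower sterol genes numbered 12 and 11.

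Of 42 tested collagens, laminins and matrix genes 19 were higher and 5 lower (median 0.23), and the higher ones numbered 9 as deposited, 12 and 10 without DMSO replicates 1 and 2 and 30 without G007-LK replicate 2. FN1, fibronectin (GRCh37 chromosome 2, 216225163 to 216300796, minus strand), was at 356 and 367 RPKM under DMSO and 935 and 760.1 RPKM under G007-LK (log2 fold change 1.22 ± 0.12, adjusted p = 0.000692). MMP2, a gelatinase, was at 17.8 and 16.5 RPKM under DMSO and 40.9 and 41.4 RPKM under G007-LK (log2 fold change 1.24 ± 0.08, adjusted p = 0.000374). The increase of FN1 exceeded that in ABC-1, OVCAR-4 and COLO 320DM by 1.63, 1.44 and 1.23 (highest adjusted p = 0.00073), and RKO hardly expressed it. NID2 (0.95), COL6A1 (0.76) and COL6A2 (0.64) rose as well. Of 21 coagulation, fibrinolysis and complement genes 7 were higher (33.3%) and 6 lower (28.6%), beside 14.6% and 15.5% over all genes. All 7 higher members belong to the complement system, a grouping made after the values were seen, and CD55, an inhibitor of complement, was lower (-0.45). C3, the central component, was at 74.3 and 75.2 RPKM under DMSO and 163 and 156 RPKM under G007-LK (log2 fold change 1.09 ± 0.08, adjusted p = 0.000414), and C1S (1.09), C1R (1.03), CFB (0.90), CFI (0.81) and the inhibitor SERPING1 (1.06) moved with it. Among the lower members was F3, the tissue factor gene, which is also in the YAP/TEAD list. The lower members numbered 2 without DMSO replicate 1.

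Interferon-stimulated genes were higher in 13 of 26 tested cases and lower in none, with a median of 0.36, but 4 were higher on the values as deposited and 8 and 6 without DMSO replicates 1 and 2. GBP2, a guanylate-binding protein, was at 6.81 and 7.65 RPKM under DMSO and 16.7 and 18.7 RPKM under G007-LK (log2 fold change 1.23 ± 0.10, adjusted p = 0.000481), and GBP1 (0.59), ISG20 (0.79), IFIT2 (0.51) and the interferon signalling factors IRF9 (from 10.000 and 10.1 to 17.1 and 17.9 RPKM, 0.77) and STAT2 (0.56) rose. The GBP genes are closely related. The STAT core TTCCNGGAA was found in 2 of 20 promoters of the list (10%) and in 1.19% of promoters of the genes tested. Of 8 tested antigen presentation genes TAPBP (0.42) and the regulator NLRC5 (0.38) were higher and the peptide transporter TAP2 was lower (from 18.02 and 18.1 to 11.2 and 11.3 RPKM, -0.66). Without either DMSO library, and on the values as deposited, 0 antigen presentation genes were higher. Of 22 NF-kB targets and cytokines 6 were higher (27.3%) and 2 lower (9.09%), beside 14.6% and 15.5% over all genes. Higher members included CSF1 (0.57), ICAM1 (0.46), RELB (0.41) and TNFAIP3 (0.37), and the cytokine IL11 fell from 16.5 and 16.4 to 7.87 and 8.74 RPKM (-0.95). The higher NF-kB targets numbered 3 without either DMSO library.

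In the TGF-beta and BMP list 12 of 22 tested members were higher and 2 lower (median 0.31). ID4 rose from 0.518 and 0.584 to 2.03 and 1.803 RPKM (1.20) and passed the filter only through its G007-LK level. ID2 rose from 28.3 and 27.7 to 50.9 and 55.1 RPKM (0.91), and ID3 (0.64), SMAD9 (0.87) and SMAD6 (0.66) followed, while the ligand gene TGFB2 fell from 69.4 and 67.1 to 48.1 and 38.9 RPKM (-0.65). UO-31 minus OVCAR-4 was higher for 12 of 20 members and lower for 1, against 5.25% of all genes higher. Against RKO it was higher for 6 of 12 and lower for 0 (6.49% of all genes higher). Against ABC-1 it was higher for 6 of 15 and lower for 2, and against COLO 320DM higher for 4 of 15 and lower for 1 (9.21% and 7.23% of all genes higher). Of 10 tested NOTCH genes HES1 (0.38) and LFNG (0.33) were higher (20%) and HES4 lower (-0.41, 10%), beside 14.6% and 15.5% over all genes. On the values as deposited no NOTCH gene was called, 0 were higher without either DMSO library, and without G007-LK replicate 1 there were 2 higher and 4 lower with a median of -0.11. Of 25 ERK feedback, AP-1 and EGF-family genes 5 were lower and 3 higher, shares near the 15.5% and 14.6% over all genes. HBEGF, an EGF-receptor ligand, fell from 32.9 and 31.5 to 18.3 and 17.9 RPKM (-0.81), with FOSL1 (-0.62), MAFF (-0.50), ETV4 (-0.36) and EPHA2 (-0.35), and JUNB rose (0.48). Of 15 tested receptor tyrosine kinase genes 6 were lower (40%) and 3 higher (20%), beside 15.5% and 14.6% over all genes. Among the lower were FGFR1 (-0.61), MET (-0.47), AXL (from 171 and 175 to 131 and 131 RPKM, -0.40) and its ligand GAS6 (-0.44). Among the higher were DDR1 (0.48) and FGFR3 (0.46). Without DMSO replicates 1 and 2 the lower kinase genes numbered 2 and 1 and the lower ERK and AP-1 genes 2 and 3.

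Cell-state genes changed without a common direction. Of 18 tested epithelial and mesenchymal genes 6 were higher (33.3%) and 2 lower (11.1%), beside 14.6% and 15.5% over all genes. Those higher came from both sides, with the epithelial MUC1 (0.62), ST14 (0.49) and KRT19 (0.55) and the mesenchymal regulators SNAI1 (0.75) and SNAI2 (0.54). KRT18 fell from 1232 and 1155 to 762 and 894 RPKM (-0.53). The higher members numbered 2 without DMSO replicate 1, and the lower ones 6 and 4 without G007-LK replicates 1 and 2. Of 28 contractile and caveolar genes 4 were higher (14.3%) and 5 lower (17.9%), near the 14.6% and 15.5% over all genes. TAGLN (-0.67) and SDPR (-0.83) fell, and TPM2 (0.75), ACTA2 (0.59), MYL9 (0.49) and PRKCDBP (0.48) rose. Of 33 hypoxia and glycolysis genes 13 were lower (39.4%, beside 15.5% over all genes). Another 5 were higher (15.2%), near the 14.6% over all genes. The glucose carrier SLC2A1 (from 73.8 and 77.2 to 49.97 and 49.6 RPKM, -0.60), HK2 (-0.62), LDHA (-0.55) and VEGFA (-0.59) fell, and CA9, a carbonic anhydrase found in renal carcinoma, rose from 1.23 and 0.844 to 2.65 and 3.07 RPKM (1.13). The lower hypoxia genes numbered 4 and 3 without DMSO replicates 1 and 2, and the higher contractile genes 11 and 13 without G007-LK replicates 1 and 2.

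Responses particular to UO-31 were sought among 7370 genes tested in all 5 lines and averaging 5 RPKM or more in UO-31. A gene counted when it was called in UO-31 and when the limma interaction test found its change to differ in the same direction from each of the 4 other lines; 32 genes changed more positively in UO-31 and 40 more negatively. PPME1, which encodes the methylesterase of protein phosphatase 2A (GRCh37 chromosome 11, 73882312 to 73965748, plus strand), had the largest such difference. It was at 272 and 272 RPKM under DMSO and 98.9 and 99.6 RPKM under G007-LK (log2 fold change -1.45 ± 0.08, adjusted p = 0.000285), so that the 2 libraries of each group nearly coincided. The change was -0.01 in RKO, -0.55 in ABC-1, -0.16 in OVCAR-4 and -0.24 in COLO 320DM, and the differences were -1.44, -0.90, -1.29 and -1.21 (highest adjusted p = 0.00029). The mean level of PPME1 in the other lines ran from 22.4 to 53.4 RPKM as deposited.

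Other falls particular to UO-31 included the glutamine carrier SLC1A5 (from 82.5 and 85.2 to 49.9 and 55.9 RPKM, -0.66), BOLA3, an iron-sulfur cluster assembly factor (from 42.2 and 41.2 to 23.7 and 26.4 RPKM, -0.73), the kinase gene MOK (from 18.1 and 17.2 to 9.63 and 10.6 RPKM, -0.78), PORCN, the acyltransferase of WNT ligands (from 35.1 and 33.4 to 22.7 and 23.5 RPKM, -0.56), SEC11C of the signal peptidase (-0.56), the sialic acid synthase NANS (-0.45), the corepressor DRAP1 (-0.47) and CD55, an inhibitor of complement (-0.45). BHLHE40, a transcriptional repressor, fell from 36.9 and 36.4 to 29.3 and 29.1 RPKM (-0.32) and had positive log2 fold changes in the other lines, of 0.51 in RKO, 0.70 in ABC-1, 0.27 in OVCAR-4 and 0.77 in COLO 320DM.

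Rises particular to UO-31 included ITM2B, a membrane protein of the secretory pathway (from 323 and 309 to 597 and 612 RPKM, 0.94), which fell in COLO 320DM (-0.77), and SOD2, the mitochondrial superoxide dismutase (from 58.9 and 55.8 to 111 and 85.2 RPKM, 0.76). TRIM16 and TRIM16L rose by 0.86 and 1.10, but they are close copies that could share reads. The polarity gene LLGL2 (0.97), TPRN (0.93), OXR1 (0.71), the adaptor DOK1 (0.63), the glypican GPC4 (0.60) and PXK (0.59) completed the group shown in the plot of 5 lines. HTRA1 could be compared in only 3 lines and moved in opposite directions in 2 of them, rising in UO-31 and changing by -0.80 in ABC-1 (difference 2.16 ± 0.12, adjusted p = 2.2e-05).

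**Figure D5:**
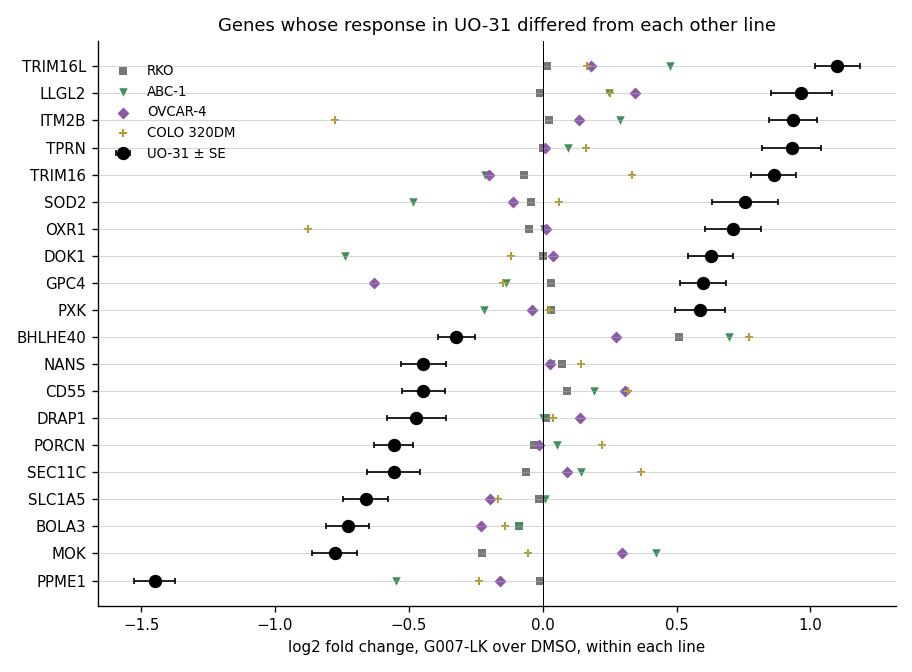
Log2 fold change with G007-LK (x axis) in UO-31 (black circles, ± SE) and in 4 other lines (coloured symbols) for 20 genes (rows) whose response in UO-31 differed from each of the other lines. In all 20 rows the UO-31 point lies outside the other 4, with PPME1 farthest to the left and TRIM16L farthest to the right. The 20 genes were chosen because UO-31 differed in the same direction from each other line, so this position follows from that choice.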

How the data were processed

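Poly(A) RNA was sequenced from UO-31 cultures, 2 with 1 µM G007-LK and 2 with 0.01% DMSO for 24 h. The deposited values were RPKM per gene, made by the authors from reads mapped to an hg19 gene set with SOAPaligner/SOAP2, allowing at most 2 mismatches. A gene with no value was read as 0. The 5 deposited comparison tables (log2 ratios and NOISeq probabilities) were not used. Total depth is unknown, so no counting intervals are given. From the deposited RPKM, libraries were rescaled by median ratios, genes averaging 1 RPKM or more were kept, and log2(RPKM + 0.5) was tested with limma 3.58.1 (trend and robust estimation, statmod 1.5.0, R 4.3.3), with Benjamini-Hochberg adjustment and a threshold of 0.05. Differences between lines were interaction terms. Tables and figures were made with Python 3.11.15, pandas 2.3.3, numpy 2.4.6 and matplotlib 3.10.9. The tests were checked on simulated data with independent noise and a constant shift per library. The simulation held no gap along transcript length, so it could not show how the tests behave under that gap.

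The members and the 40 gene lists were chosen with earlier results of these data known. The genes named were the 15 largest rises and falls called on rescaled and deposited values, averaging 5 RPKM or more, with no overlap between groups, up to 6 called members of each list by size of change, all tankyrase list members, genes the study names and up to 10 genes in each direction that differed from all other lines. Genes outside this rule (the markers, CDH16, GGT1, SRM, EBNA1BP2, CDKN1A and members named as not passing among them) were chosen after their values were seen. Gene coordinates are GRCh37, and promoter sequences are RefSeq, GRCh38.p14, matched for 8810 genes. Alternatives were the deposited values, equal sums, quantile normalization, other filters and pseudocounts, a replicate block, 1 fit over 20 libraries, limma without trend and robust estimation, and leaving out each library, with rescaling by transcript length added after the data were seen. Most list members are given as counts only, and some results are not reported here.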

Additional observations from a re-analysis of the deposited data

Results flagged for a closer look

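For 20 genes the limma interaction test found the UO-31 response to differ in 1 direction from that of each other line, and the smallest of the 4 differences (log2) is given. It was positive for TPRN (0.77), OXR1 (0.70), SOD2 (0.69), ITM2B (0.65), TRIM16L (0.62), LLGL2 (0.62), DOK1 (0.59), GPC4 (0.57), PXK (0.55) and TRIM16 (0.53). It was negative for PPME1 (-0.90), BHLHE40 (-0.60), MOK (-0.55), CD55 (-0.54), PORCN (-0.52), SEC11C (-0.50), BOLA3 (-0.50), NANS (-0.47), DRAP1 (-0.47) and SLC1A5 (-0.46). HTRA1 rose in UO-31 and fell in ABC-1, a difference of 2.16. These comparisons share the UO-31 libraries, and with 2 libraries a group no single library could be tested as standing apart.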

How the results depend on the processing

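The 1727 higher and 1837 lower genes became 568 and 1023 on the values as deposited and 2839 and 3040 in 1 fit over 20 libraries. Leaving out single libraries gave 705 to 3352 higher and 778 to 3357 lower genes: 777 and 778 without DMSO replicate 1, 705 and 779 without DMSO replicate 2, 3352 and 3315 without G007-LK replicate 1, and 2875 and 3357 without G007-LK replicate 2. Such a fit has a lone library in 1 group, assumed to vary like the other group. With a minimum mean of 5 RPKM, 307 genes were higher by at least 1.5-fold. The cause of these shifts was not tested.

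Differences from other lines, as genes higher and lower, on the values as deposited were 100 and 418 for RKO, 359 and 145 for ABC-1, 155 and 176 for OVCAR-4 and 132 and 142 for COLO 320DM. Rescaling by transcript length, chosen after seeing the data, gave 976 higher for RKO, 905 higher for OVCAR-4, 1117 higher for COLO 320DM and 1399 lower for ABC-1, and no filter gave 1157 higher for COLO 320DM. Omitting single libraries gave 256 to 1965 higher and 793 to 2874 lower for RKO, 411 to 1589 and 428 to 1676 for ABC-1, 229 to 1812 and 424 to 2794 for OVCAR-4, and 294 to 1398 and 383 to 1732 for COLO 320DM.

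The replicate block gave 1979 higher and 2033 lower genes in UO-31, and 472 higher and 631 lower against COLO 320DM. Same-numbered libraries did not deviate together (correlation -0.021), so the numbers are not taken as pairing.

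Of 246 named genes called, 153 kept their call in every alternative run. Among genes not called, the sign turned when single libraries were omitted for AXIN1 (-0.116 to 0.00562; positive without G007-LK replicate 1), AMOTL1 (-0.0682 to 0.231; negative without G007-LK replicate 1), LNPEP (-0.84 to 0.119; positive without G007-LK replicate 2) and PEX14 (-0.126 to 0.0426; positive at 0.0117 without G007-LK replicate 1), for PEX14 with quantile normalization (0.0135), and for the difference in MYC from ABC-1 on the values as deposited (0.05998).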
